A study of Rattus norvegicus with 4 samples.

Results

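The interleukin receptor chains were taken as the genes whose rat symbol begins with Il, a number and the letter r, without the antagonist gene Il1rn. Probes were matched to symbols through their RefSeq accession. Of 41 such genes in the RefSeq table of rat genes, 36 had a probe, with 48 probes in all, among 16581 named genes with 21109 probes. No probe was matched to Il15ra, Il18rap, Il23r, Il27ra or the pseudogene Il13ra1-ps1. The pattern also took in Il36rn, which encodes a soluble antagonist of interleukin 36 and is no receptor chain. It is kept in the counts and named where it matters.

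The cells were NR8383, a macrophage line derived from the lung lavage of a normal rat and used at 20 passages. All 4 samples form 1 group, exposed for 4 h to 11 cm2 per cm2 of NRCWE055, which is a pristine single-walled carbon nanotube. Unexposed cells of the study were not analysed here, so the levels describe exposed cells and no change is measured. For replicates 2, 3 and 4 the source name gives NRCWE056, NRCWE057 and NRCWE058 in place of the NRCWE055 of the title, a different number for each, and the title was followed. If the source names were right, each array would be a different material, and the SDs between arrays would include that. They are called biological replicates in the study design, with 1 array for each.

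Interleukins signal by joining receptor chains on the cell surface, usually a chain particular to the ligand and a chain shared with other ligands. Most of these chains have no kinase of their own and work through bound Janus kinases and STAT transcription factors, whereas the interleukin 1 family uses the adaptor MyD88 and the interleukin 17 family the adaptor Act1. In macrophages, interleukins 4 and 13 are known for driving alternative activation and interleukin 10 for restraining inflammation. A receptor generally needs all of its chains, so detection was read chain by chain and then for each receptor.

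In exposed cells, 13 of the 36 genes (36.1%) were detected on all 4 arrays, meaning that their signal was well above background by the scanner software's flag, 2 on 1 array each and 21 on none. The corresponding share of all named genes was 52.4%. The 13 detected genes were Il2rg, Il4r, Il7r, Il3ra, Il13ra1, Il6r, Il10ra, Il10rb, Il20rb, Il1rap, Il17ra, Il17rc and Il17re. They include Il4r, the gene taken as the marker of the group. The list was the same without each replicate in turn and with detection required on only 3 arrays. Each of these runs asks for fewer arrays, so it could add genes but lose none. On replicate 1 alone, whose title and source name give the same nanotube number, 14 were detected, the 13 and Il9r. A gene not detected has only an upper bound here, and its absence is not shown.

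The labelled cell type was set against its markers. All 8 macrophage markers, among them Cd68, Csf1r and Spi1, were detected on all arrays, as were 9 of 40 measured markers of other cell types. Over all named genes the share was 52.4%. Many interleukin receptors were first studied in lymphoid and granulocytic cells, and the lists for these cells were mixed. Among their genes, Cd3e, Cd8a, Ncr1, Cpa3 and Epx were below detection on every array. The 9 detected were Cd3d and Lck (T cell), Gzmb (NK cell), Pax5 (B cell), Prg2 (eosinophil), S100a8 (neutrophil) and the endothelial markers Cdh5, Pecam1 and Vwf. The part of other cell types in the receptor levels was not tested. Per array, 13 or 14 of the receptor genes and between 8932 and 9311 named genes were detected.

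Levels are log2 signals relative to the 75th percentile of each array over the probes detected on all arrays, given for replicates 1, 2, 3 and 4 in that order and then as mean ± SD (n = 4). Probes differ in how brightly they report a transcript, so the level of a gene is compared between arrays and never with that of another gene. The lowest level of any probe well above background was -6.81, -7.40, -7.49 and -6.89 on the 4 arrays.

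**Figure D1:**
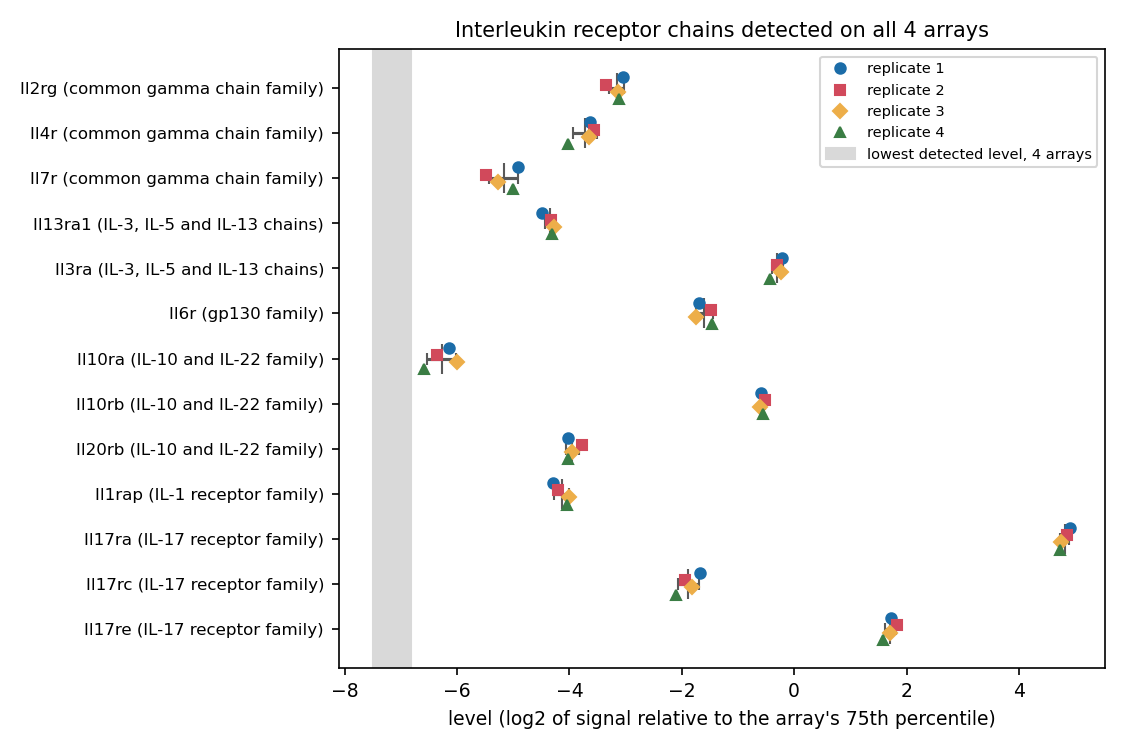
Level of each of the 13 interleukin receptor genes detected on all arrays, on the x axis as log2 signal relative to the 75th percentile of the array, with a symbol per replicate, a vertical tick at the mean and a bar of 1 SD either side. The grey band spans the lowest detected levels of the 4 arrays, from -7.49 to -6.81, and Il10ra at -6.27 lies nearest to it.

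The common gamma chain family was detected in part. Il2rg encodes the gamma chain shared by the receptors for interleukins 2, 4, 7, 9, 15 and 21, and its levels were -3.04, -3.36, -3.13 and -3.12 (-3.16 ± 0.14). Il4r, the chain that binds interleukin 4, was at -3.63, -3.56, -3.66 and -4.03 (-3.72 ± 0.21). Il4r was lowest on replicate 4 and spanned 0.46 between arrays, equal to 1.38-fold. Il7r, the alpha chain for interleukin 7, was at -4.92, -5.49, -5.27 and -5.00 (-5.17 ± 0.26), with replicates 2 and 3 below the others.

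The other measured chains of the gamma family were detected on 1 array or none. Il2rb, the signalling chain for interleukins 2 and 15, and Il21r, the chain for interleukin 21, were detected on none of the arrays. Il2ra, the alpha chain of the high-affinity interleukin 2 receptor, was detected on replicate 3 at a level of -6.81, while its levels of -6.63, -7.82 and -6.97 on replicates 1, 2 and 4 were not well above background. It passed the looser flag, which asks only for a positive and significant signal, on all 4 arrays. Il9r, the chain for interleukin 9, had 3 probes. Of these, 1 was detected on replicate 1 at -5.58, against -9.48, -9.41 and -8.91 on replicates 2, 3 and 4, where it was not well above background, and the other probes were not detected on any array.

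Chains for interleukins 3, 5 and 13 divided evenly, with 2 of 4 detected, near the 52.4% of all named genes. No family was tested against that share. Il3ra, the alpha chain for interleukin 3, was at -0.22, -0.30, -0.24 and -0.43 (-0.30 ± 0.10). Il13ra1, which joins Il4r in the receptor that takes both interleukin 4 and interleukin 13, was at -4.48, -4.32, -4.28 and -4.31 (-4.35 ± 0.09), its 2 probes lying 1.11 apart. For Il13ra1 the SD was 0.154 with the brightest probe alone and 0.0143 without replicate 1. Il5ra, the chain for interleukin 5 known from eosinophils, and Il13ra2, a high-affinity interleukin 13 chain usually described as a decoy, were not detected on any array.

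Of 3 measured ligand-binding chains that pair with gp130, 1 was detected, beside 52.4% of all named genes. Il6r, which binds interleukin 6, was at -1.69, -1.48, -1.75 and -1.47 (-1.60 ± 0.15). This value comes from the probe designed on the curated RefSeq transcript. The Il6r probe designed on a predicted transcript was not detected on any array, so the probes of this gene disagreed. Il11ra1 and Il31ra, chains for interleukins 11 and 31, were not detected. Neither were Il12rb1 and Il12rb2, the chains of the interleukin 12 receptor known from T and natural killer cells.

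In the interleukin 10 and 22 family, 3 of 6 members were detected, near the 52.4% of all named genes. Il10ra, which binds interleukin 10, was at -6.15, -6.35, -6.00 and -6.59 (-6.27 ± 0.25), and it was the detected chain nearest to the lowest detected level of the arrays. Its partner Il10rb, shared by the receptors for interleukins 10 and 22, was at -0.58, -0.52, -0.62 and -0.55 (-0.57 ± 0.04). The SD of Il10rb was 0.0410, and it was 0.145 with normexp correction. Il20rb, a chain of the receptors for interleukins 19, 20 and 24, was at -4.03, -3.77, -3.96 and -4.03 (-3.95 ± 0.12), while Il20ra, Il22ra1 and the soluble binding protein gene Il22ra2 were below detection on every array.

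The interleukin 1 receptor family was largely below detection, with 1 of 8 measured members above it, beside 52.4% of all named genes. That member was Il1rap, the accessory chain shared by the receptors for interleukins 1, 33 and 36, at -4.30, -4.20, -4.01 and -4.05 (-4.14 ± 0.13). It had a probe on each of 2 transcripts, which averaged -2.43 ± 0.06 and -5.85 ± 0.21. These probes lay 3.41 apart, and both were detected on all arrays. Il1r1, the signalling receptor for interleukin 1, Il1r2, its decoy, Il1rl1 for interleukin 33, Il1rl2 for interleukin 36 and Il18r1 for interleukin 18 were detected on none of the arrays. The same held for Il1rapl1 and Il1rapl2, members known mainly from neurons.

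Of the 7 undetected members of this family, 5 lie together in the genome. In the RefSeq annotation of assembly GRCr8, Il1r2, Il1r1, Il1rl2, Il1rl1, Il18r1 and Il18rap follow one another on chromosome 9, with 1 other protein-coding gene between Il1r2 and Il1r1 and none between the rest. Of these 6 genes, 5 were measured and 0 were detected, while 52.4% of all named genes were. These 5 make up most of the 8 measured members of the family, so the count largely restates where the family lies. A link between position and detection was not tested. Their 6 probes had levels from -9.71 to -8.56, and 4 of them did not pass the looser flag on any array. Il1rap lies apart from this cluster, on chromosome 11.

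The interleukin 17 receptor family was detected for 3 of 5 members, near the 52.4% of all named genes. Il17ra, the chain shared by the receptors for interleukins 17A, 17F, 25 and 17C, was at 4.91, 4.86, 4.75 and 4.73 (4.81 ± 0.08). Its processed signal averaged 52714, 76524, 77106 and 49830 on replicates 1 to 4, and 0 of its spots were saturated. Il17ra was measured with more spots than any other member, since its probe is printed 10 times per array.

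The partner chains of Il17ra were detected in part. Il17rc, its partner for interleukins 17A and 17F, was at -1.67, -1.94, -1.82 and -2.10 (-1.88 ± 0.18), lowest on replicate 4. Il17re, its partner for interleukin 17C and best known from epithelium, was at 1.73, 1.82, 1.70 and 1.58 (1.71 ± 0.10). The 2 probes of Il17re lay 0.42 apart and both showed replicate 4 lowest. Il17rb, the partner for interleukin 25, and Il17rd, a regulator of growth factor signalling, were not detected on any array, although Il17rd passed the looser flag on all 4 arrays. Il17rc and Il17re are neighbours on chromosome 4 with no protein-coding gene between them.

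Most probes detected on no array lay below the lowest detected level of their array. They numbered 30, from 23 genes that include Il6r and Il9r. Their levels ran from -9.72 to -6.40, and 14 of them passed the looser flag on no array. The highest of these levels belonged to a probe of Il36rn on replicate 1. The 16 probes detected on all arrays had levels from -6.59 to 4.91. By the looser flag 16 of 36 genes were detected on all arrays, against 61.3% of all named genes, and the added genes were Il2ra, Il17rd and Il36rn.

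**Figure D2:**
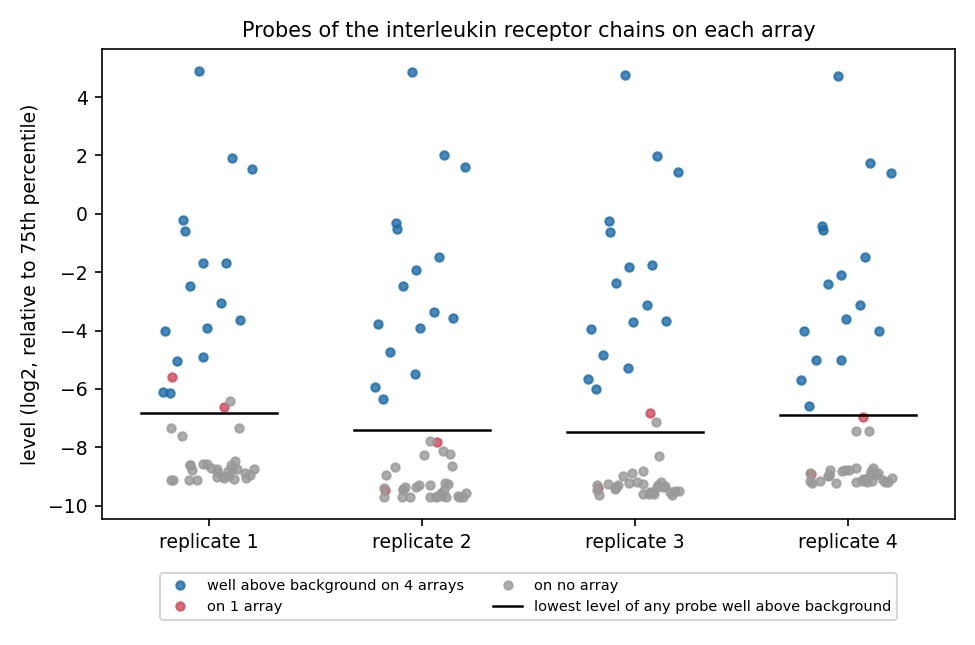
Level of each of the 48 probes on each array, on the y axis as log2 signal relative to the 75th percentile, by whether the probe was well above background on 4 arrays, 1 array or none. Black lines mark the lowest level of any probe well above background, from -7.49 to -6.81, and most probes detected on no array cluster below -8.

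Read by receptor, the detected chains completed 9 of 28 receptors. Of the 28, 24 had every chain measured, and of these 9 had all chains detected on all arrays, 13 had some and 2 had none. The complete receptors were those for interleukin 3, interleukin 4 (type I), interleukins 4 and 13 (type II), interleukin 6, interleukin 7, interleukin 10, interleukins 17A and 17F, interleukin 17C and thymic stromal lymphopoietin. The call for interleukin 10 rests on Il10ra, which lies near background at a mean level of -6.27. The call for interleukin 6 rests on 1 of 2 Il6r probes, the other being undetected. The pairings are textbook knowledge, and 9 receptors were complete under every alternative run. None of these runs set a stricter rule of detection, so the count was not tested against one.

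Chains outside the name pattern supplied a partner in several of these pairs. Il6st, which encodes gp130, was at -2.84, -2.91, -2.75 and -2.89 (-2.85 ± 0.07). Csf2rb, the beta chain shared by the receptors for interleukins 3 and 5 and GM-CSF, was at -4.83, -4.37, -4.32 and -4.93 (-4.61 ± 0.31), and the GM-CSF chain gene Csf2ra was at 0.22 ± 0.11. Csf2rb lay higher in replicates 2 and 3 than in the others. Crlf2, which pairs with Il7r for thymic stromal lymphopoietin, was at 3.48 ± 0.05. Osmr, the partner of Il31ra, and Sigirr, an inhibitory member of the interleukin 1 receptor family, were not detected.

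**Figure D3:**
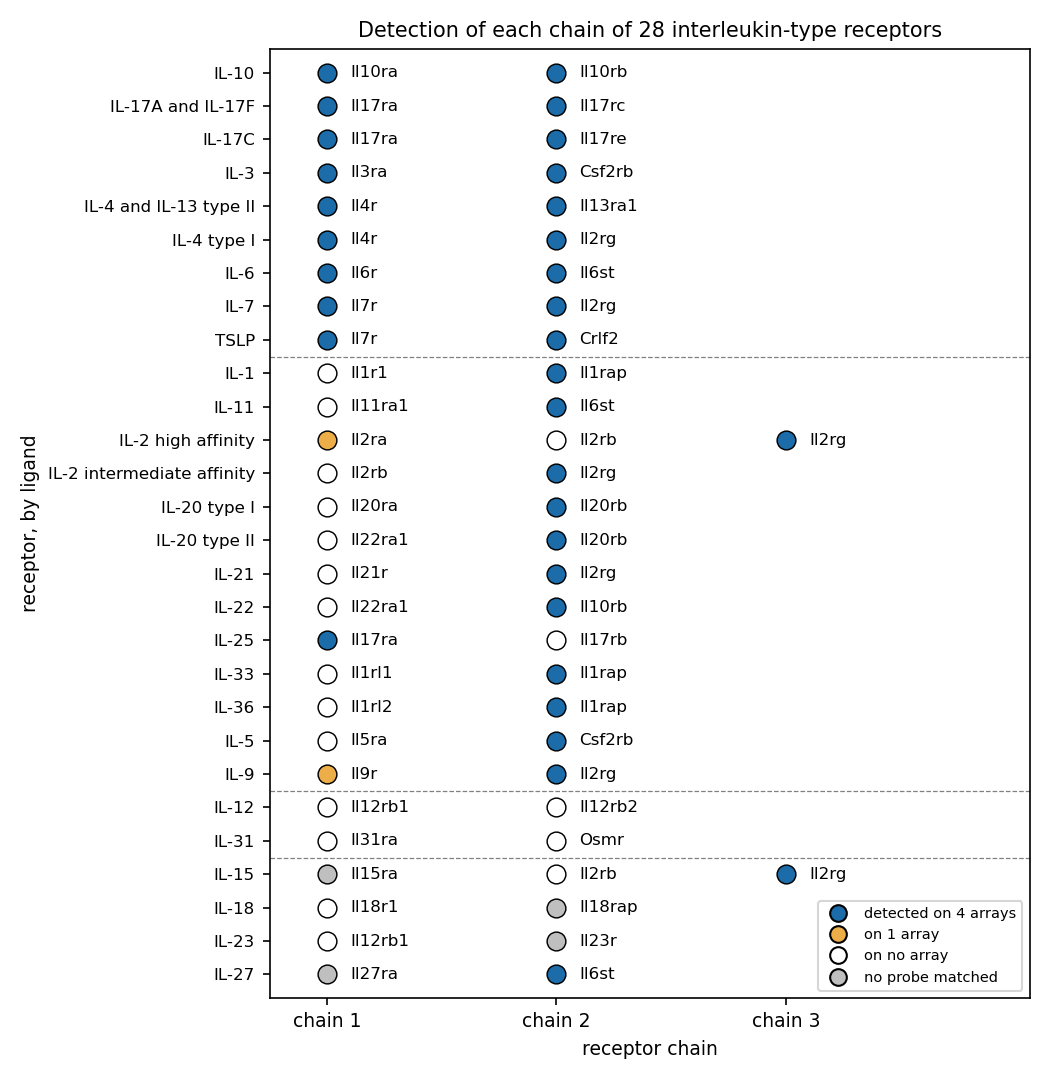
Detection of each chain of 28 receptors, a row per receptor named by its ligand and a circle per chain, filled by the number of arrays on which the chain was well above background. Dashed lines part 9 receptors with every chain detected, 13 with some, 2 with none and 4 for which a chain had no matched probe.

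In the 13 receptors detected in part, the chain detected on all arrays was in each case one that serves several receptors of the list. This is partly built in, because a receptor whose other chains were also detected counts as complete. Not every such chain was detected. Il2rb, Il22ra1 and Il12rb1 also serve several listed receptors and were detected on no array. Il1rap was detected without Il1r1, Il1rl1 or Il1rl2. Il2rg was detected on all arrays whereas Il2rb and Il21r were on none and Il2ra and Il9r on 1 each. Il10rb was detected without Il22ra1, and Il6st without Il11ra1. Csf2rb was detected without Il5ra and Il17ra without Il17rb. Il20rb was detected without Il20ra or Il22ra1.

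Most signalling genes behind the receptors were detected. Of 11 Janus kinase and STAT genes, 10 were detected on all arrays and Stat4, which acts in interleukin 12 signalling, on none. The share of all named genes was 52.4%, and no list was tested against it. Jak1 was at -0.30 ± 0.04, Jak2 at -4.14 ± 0.20, Jak3, the kinase that binds the gamma chain, at -3.58 ± 0.18 and Tyk2 at -2.88 ± 0.08. Stat6, the factor activated by interleukins 4 and 13, was at -1.94, -1.68, -1.68 and -2.02 (-1.83 ± 0.18). Stat3 was at 0.40 ± 0.23, Stat5a at 2.28 ± 0.02 and Stat5b at -2.13 ± 0.18.

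All 10 measured adaptors and kinases of interleukin 1 and 17 signalling were detected, beside 52.4% of all named genes. Myd88 was at 2.81 ± 0.09, Irak1 at -1.79 ± 0.05 and Traf6 at -4.28 ± 0.09. Irak4, the kinase that starts the MyD88 cascade, was at -6.37, -6.20, -6.14 and -4.81, higher on replicate 4 than on the other arrays. Of 9 feedback inhibitors and antagonists 7 were detected, beside the same 52.4%. Socs3 was at -2.88 ± 0.05, Cish at -2.32 ± 0.12, Il1rn, the interleukin 1 receptor antagonist, at 1.48 ± 0.05 and Il18bp, a soluble trap for interleukin 18, at -2.88 ± 0.12, while Socs1 and Socs2 were below detection on every array.

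Ligand genes were set beside the chains of their receptors. Of 27 measured interleukin genes, 6 were detected on all arrays, namely Il1a, Il1b, Il7, Il16, Il18 and Il33. Over all named genes the share was 52.4%. Il1a was at -0.78 ± 0.08 and Il1b at 1.22 ± 0.07, while Il1r1 was not detected. Il18 was at -0.55 ± 0.09 and Il33 at -5.12 ± 0.36, while Il18r1 and Il1rl1 were not detected. In the other direction, Il4, Il6, Il10 and Il13 were detected on no array, although every chain of their listed receptors was detected. Il13ra2, an interleukin 13 chain in none of the listed receptors, was not detected, and neither was the ligand gene Il15. Il3, Il17a and Il17f were also detected on no array, with every chain of their listed receptors detected. Some other ligands and receptors were alike in detection. Il7 was detected on all arrays, as were Il7r and Il2rg, and Il12a and Il12b were not detected, nor were Il12rb1 and Il12rb2. RNA levels do not measure receptor protein on the cell surface.

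The spread of the detected receptor chains between arrays was set beside that of all detected genes. The median of their SDs (log2) was 0.132, against 0.0926 for all 8685 detected genes, and 10 of 13 had an SD above that median. When normexp correction was used, the 2 medians were closer, at 0.115 and 0.0988. A span of over 2-fold between arrays was found for 0 of the 13 and for 1.11% of all detected genes, a share too small for the count to set the 13 apart. Il10ra spanned 0.59 and Il7r 0.57. With normexp these spans were 0.44 and 0.53, and without replicate 4 they were 0.34 and 0.57. Spread was smaller at higher signal over the array. The 3178 detected genes with a level below -3 had a median SD of 0.150 and the 5507 others one of 0.0748, a limit chosen after the levels were seen. Of the receptor chains, 7 lay below that limit, with a median SD of 0.137, and 6 above it, with a median SD of 0.0978.

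**Figure D4:**
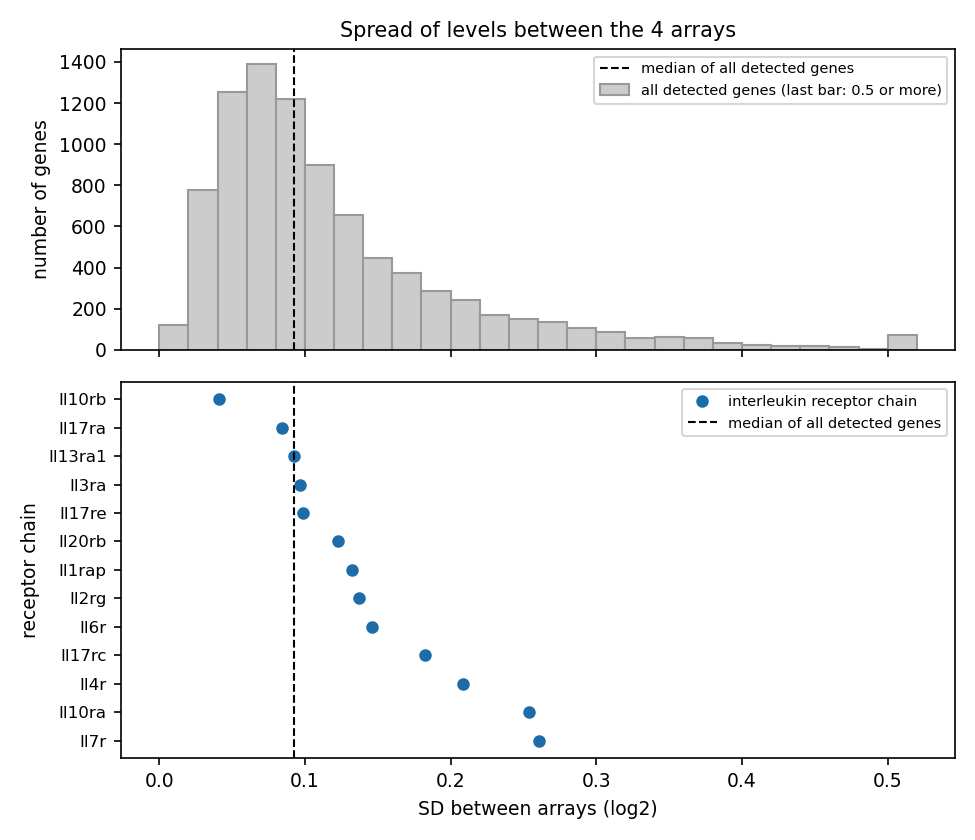
Upper panel, number of detected genes by their SD between the 4 arrays on the log2 scale. Lower panel, SD of each of the 13 receptor chains, from 0.04 for Il10rb to 0.26 for Il7r, with the median of all detected genes as a dashed line at 0.0926 in both panels.

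Replicate 4 was the lowest array for 7 of the 13 chains, namely Il10ra, Il17ra, Il17rc, Il17re, Il20rb, Il3ra and Il4r. For Il20rb the margin was slight, at -4.0309 on replicate 4 against -4.0305 on replicate 1. For Il17ra it was small too, at 4.73 on replicate 4 against 4.75 on replicate 3. Replicate 4 was the lowest array for 26.1% of all detected genes. When normexp background correction was used, it was the lowest for 4 of 13 chains and 19.0% of genes. The 75th percentile signal was 1756 on replicate 1, 2631 on replicate 2, 2861 on replicate 3 and 1873 on replicate 4, and its part in these differences was not tested.

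A test of differences between arrays was possible only for probes printed several times. Over 1742 such probes detected on all arrays, an F test in limma called 746 (42.8%) after Benjamini-Hochberg adjustment, against 222 with normexp correction. For Il17ra the largest difference between arrays was 0.17 (limma adjusted p = 0.00555), with an SD between spots of 0.07, 0.08, 0.10 and 0.16 on the 4 arrays. This call was lost with normexp correction (limma adjusted p = 0.691) and without replicate 1 (limma adjusted p = 0.0712). For the Il17re probe printed 2 times the largest difference was 0.27 (limma adjusted p = 0.0982). The test measures a difference against the spread between spots of an array. With 1 array per culture, a difference between cultures cannot be told apart from one in labelling or hybridization, or in the material that the source names give.

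Probes of a gene were compared for detection. Of 11 members with several probes, Il6r and Il9r had probes that differed in detection on any array. On detection on all arrays, 1 of the 11 members disagreed, Il6r, against 21.8% of 3658 genes with several probes, and counts this small do not set the members apart. The other 25 members rest on 1 probe each.

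Promoters were compared because the detected and undetected chains include direct neighbours. Il4r and Il21r lie next to each other on chromosome 1 of GRCr8, with no protein-coding gene between them, and Il4r was detected on all arrays and Il21r on none. The 250 bases before the annotated start of each gene were taken from RefSeq sequence of GRCr8, found for 27 of the 36 genes. Il4r had 15 CpG dinucleotides in this window and Il21r 5. Among detected members the count was at least 15 in 5 of 11 and the median was 14, and among the other members it was at least 15 in 2 of 16 and the median was 6. Over all named genes a count of at least 15 was found in 57.5% of 7275 detected genes and 23.5% of 6280 others, with medians of 16 and 5. The limit of 15 was chosen after the counts were seen.

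**Figure D5:**
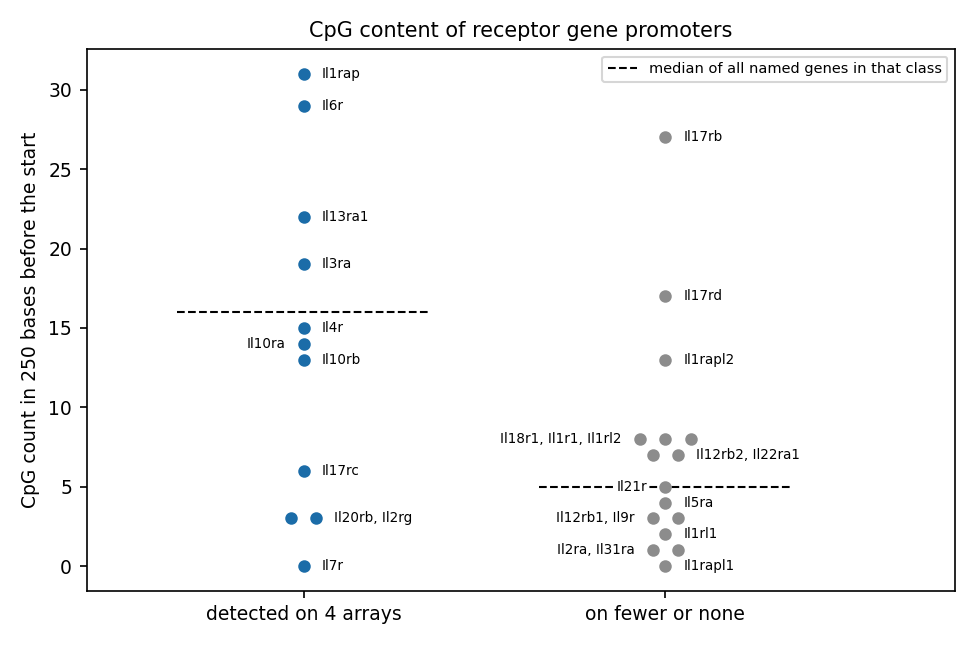
CpG count in the 250 bases before the start of each receptor gene with a promoter sequence, for 11 genes detected on all arrays and 16 detected on fewer or none. Dashed lines mark the medians of all named genes in the same classes, 16 and 5, and both classes of receptor genes run from 0 to 27 or more.

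The neighbours Il4r and Il21r and a pair of exceptions are shown with each CpG in capitals. Il7r had 0 CpG and was detected on all arrays, whereas Il17rb had 27 and was detected on none. The windows are chr1:189545525-189545774 on the plus strand for Il4r, chr1:189598503-189598752 on the plus strand for Il21r, chr2:60204918-60205167 on the minus strand for Il7r and chr16:5200658-5200907 on the minus strand for Il17rb, all in GRCr8 and written 5′ to 3′ toward the gene.
Il4r: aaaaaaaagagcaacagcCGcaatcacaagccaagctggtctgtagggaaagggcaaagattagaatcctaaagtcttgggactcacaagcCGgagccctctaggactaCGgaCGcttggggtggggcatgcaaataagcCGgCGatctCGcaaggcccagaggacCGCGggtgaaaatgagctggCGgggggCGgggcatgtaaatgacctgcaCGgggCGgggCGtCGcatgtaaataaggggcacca
Il21r: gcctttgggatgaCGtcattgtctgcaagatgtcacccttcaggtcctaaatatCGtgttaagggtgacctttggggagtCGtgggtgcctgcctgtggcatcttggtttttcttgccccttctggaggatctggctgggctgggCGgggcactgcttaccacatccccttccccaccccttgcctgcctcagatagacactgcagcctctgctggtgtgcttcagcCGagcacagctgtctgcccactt
Il7r: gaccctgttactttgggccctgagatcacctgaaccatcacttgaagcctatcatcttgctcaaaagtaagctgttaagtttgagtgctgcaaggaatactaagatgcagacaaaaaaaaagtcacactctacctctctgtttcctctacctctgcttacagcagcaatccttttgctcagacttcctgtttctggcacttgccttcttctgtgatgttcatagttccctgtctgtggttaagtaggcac
Il17rb: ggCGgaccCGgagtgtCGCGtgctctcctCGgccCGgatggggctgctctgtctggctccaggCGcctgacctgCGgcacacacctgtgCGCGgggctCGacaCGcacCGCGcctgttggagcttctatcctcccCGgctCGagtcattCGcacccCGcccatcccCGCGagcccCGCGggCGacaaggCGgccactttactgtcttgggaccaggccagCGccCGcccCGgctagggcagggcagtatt

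Motifs for factors of these pathways were searched in the same windows. The STAT motif TTCNNNGAA, which reads the same on both strands, was found in 0 of 11 promoters of detected members and in 2 of 16 of the others, those of Il12rb2 and Il18r1. It was present in 6.20% of promoters of all detected named genes, 8.50% of those of the others and 7.67% of all 33469 promoters of this length. The PU.1 motif GAGGAAGT, searched on both strands, was in none of the 27 and in 2.04% of all promoters. Such matches describe the letters of the window and not the binding of a factor.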

How the data were processed

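RNA of 4 NR8383 cultures was hybridized to 1-colour Agilent rat arrays (Cy3) on 1 slide in 1 scan. The deposited intensity values are processed signals that the authors made with version 11.0.1.1 of Agilent Feature Extraction, as stated per the file headers. Its detection flags were used too. The array design was built on rat assembly rn4, per the file headers, and symbols came from RefSeq's GRCr8 table by accession.

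Control spots and outlier-flagged spots were left out, leaving 45598 probes. A probe was detected on an array when the well-above-background flag was set on over 50% of its usable spots. Since 40.8% to 43.7% of probes were detected per array, log2 signals were set relative to the array's 75th percentile, taken over the 17807 probes that every array detected. A gene's level is the mean of its probes detected on all arrays. The number of arrays limits the precision. Correlations between arrays ran from 0.996 to 0.998, and of 308 negative control spots 1 to 3 passed the flag on an array.

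Probes printed several times were compared between arrays by limma 3.58.1 (R 4.3.3), at an adjusted p of 0.05. On simulated data with 1742 probes, the test recovered 14%, 56%, 80% and 100% of 50 probes changed by 0.1, 0.25, 0.5 and 1 on the log2 scale, with 6 false calls among 1542. Alternatives were normexp background correction with an offset of 50, other centrings, quantile normalization, other detection rules, outlier spots kept, the brightest probe per gene and each replicate left out.

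Every gene of the name pattern is named, as are fixed genes of the partner, signalling, inhibitor and ligand lists and the exceptions of a list where these are 5 or fewer. Other genes named were chosen after their values were seen. The members and lists were chosen with earlier results of these data known. The study's unexposed cells were not analysed here.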

Additional observations from a re-analysis of the deposited data

Results flagged for a closer look

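In 4 of 39 series of 4 values, 1 array stood apart by more of the whole range than Dixon's critical value allows. By chance 1.95 would be due in series not picked by their values. The Il9r and Il2ra probes are of genes detected on 1 array each, so the flag of Il9r largely follows from that. The count therefore does not measure an excess over chance. The probe of Il9r, the only one of its 3 detected anywhere, was at a level of -5.58 on replicate 1 and between -9.48 and -8.91 on the other arrays. Irak4 was at -4.81 on replicate 4 and between -6.37 and -6.14 on the others. Csf2ra was at 0.0534 on replicate 4 and between 0.26 and 0.30 on the others. Il1b was at 1.32 on replicate 2 and between 1.18 and 1.19 on the others. Each of these rests on 1 array per culture.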

How the results depend on the processing

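The count of 13 detected receptor genes was the same in each alternative run except the looser flag, which gave 16, and the count of 9 complete receptors was the same in all. None of these runs set a stricter rule of detection. The share of all named genes detected was 61.3% with the looser flag and 53.9% with detection on at least 3 arrays, and 52.4% to 53.3% without each replicate. Without a filter on dim probes the median SD was 0.321 for the receptor genes and 0.244 for all genes. Under the other settings the receptor genes' median SD ran from 0.115 with normexp to 0.152 when all spots set the 75th percentile, and from 0.118 to 0.134 without each replicate. For all detected genes it was 0.0988 with normexp and 0.104 when all spots set the percentile. Receptor genes spanning over 2-fold numbered 3 with the looser flag and 8 without a filter, since dimmer probes then entered. Probes printed several times that differed between arrays numbered 222 with normexp, where the cause was not tested, 525 to 694 without each replicate, and 915 when all spots set the percentile. Levels of all 13 genes moved by over 1 SD under median centring, scaling over all spots and the looser flag, each of which sets another zero for the whole array. Normexp moved 10 of the 13 by unequal amounts, with Il10ra at -4.45 and Il17ra at 4.69, and the brightest probe per gene moved 3. Without a filter Il6r was at -5.07, since its undetected probe then entered, and without replicate 1 the levels of 2 genes moved. No paired analysis was possible because the samples form 1 group. Il10ra and Il2ra lie near background, where the flag decides the call, whereas Il9r stood well above it on replicate 1 alone.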

Other observations

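Chains of other cytokine receptors that signal through the same Janus kinases were also detected, named here after their values were seen. Ifngr1, the ligand-binding chain for interferon gamma, was at 1.80 ± 0.14 and its partner Ifngr2 at 0.64 ± 0.07, and Ifnar1, a chain of the type I interferon receptor, at -3.13 ± 0.14 (SD, n = 4). Lifr, the receptor chain for leukaemia inhibitory factor, was not well above background on any array.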
